A study of Mus musculus with 12 samples.

Results

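The proteins that carry nuclear-encoded precursors into mitochondria are named for the 2 membranes they sit in, TOM for the outer and TIM for the inner one. Their genes were taken as all gene names that begin with Timm or Tomm followed by a digit, without the pseudogene suffix -ps. The rule found 24 genes among the 16246 genes listed in at least 1 of the 4 deposited tables. No measured value entered the rule, but it was chosen with earlier results of these data known. All 24 passed the filter of a mean value of at least 10 in every comparison. Of these, 23 are protein-coding, and the remaining one, Tomm6os, is a transcript antisense to Tomm6 that the name rule carries along.

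PolyA RNA was sequenced from hearts of male C57Bl/6J mice aged 12 weeks, in 4 groups of 3 samples. The mice received either a control diet that supplied all essential amino acids, BCAA included, or a BCAA-free diet, which lacked leucine, isoleucine and valine, the amino acids with a branched chain (BCAA). Feeding started 4 days ahead of surgery, which was either a sham operation or transverse aortic constriction (TAC), a banding of the aorta that loads the left ventricle with pressure, and it went on until the hearts were taken 2 weeks later. Groups are named here by diet and then by surgery, as in control diet sham or BCAA-free TAC, and no genetic modification is named in the labels. Whether 1 sample is 1 heart or a pool is not stated, so p-values reflect only how far these samples vary, and that variation may be technical.

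Almost all mitochondrial proteins are made in the cytosol and imported unfolded. The TOM complex recognises them with receptor subunits and passes them through a beta-barrel pore; presequence-bearing proteins then go through the TIM23 complex into the matrix, while carrier proteins of the inner membrane are escorted by small Tim chaperones of the intermembrane space to the TIM22 complex. Heart muscle is among the tissues with the most mitochondria, and its metabolic enzymes and respiratory chain depend on this route.

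Values are normalized read counts, that is, reads of a gene divided by 1 size factor per library. The size factors differ between tables, so values were compared only within a table. Depth was 13848953 to 52059546 reads a library in the 2 TAC tables. The TAC labels were checked with Acta1, Myh7, Nppa and Nppb, stress genes of the pressure-loaded ventricle, whose summed value was 32680.0 to 51143 in control diet sham and 133113 to 337722 in control diet TAC (3 of the 4 rose). The corresponding sums without BCAA were 38298 to 52118 in sham and 75119.6 to 120062 in TAC hearts (2 of the 4 rose, Acta1 and Myh7). The heart label was checked with 8 cardiomyocyte markers, all listed in every table, with summed values of at least 1430456 per library. Because heart tissue was measured in bulk, fewer cells of a type and less RNA per cell cannot be told apart in any result below.

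The library of control diet sham replicate 3 stood apart for the TIM and TOM genes. In the table of TAC on the control diet it held the highest of the 6 values for 17 of the 23 coding genes, and their mean deviation from the 6-library average was 0.40 on the log2 scale, against 0.034 and -0.019 in the other sham replicates. Over all genes, its deviations were related to transcript length with a Spearman coefficient of -0.46 (15365 genes, which are not independent), against 0.023 and 0.089. Short transcripts were thus high in that library. The median transcript of the 24 genes is 2442 bases long, and that of all genes tested 3216 bases. The part of transcript length in that library's values for the 24 genes was not tested. Values without that library are given below for the genes named in comparisons with control diet sham where it moves them most. The plot of mean deviations by library places it above the other 5 libraries of both tables that contain it. With TAC on the control diet, control diet TAC replicate 2 held the lowest of the 6 values for 13 of the 23 coding genes. Its mean deviation was -0.19, against -0.12 and -0.11 in control diet TAC replicates 1 and 3.

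**Figure D1:**
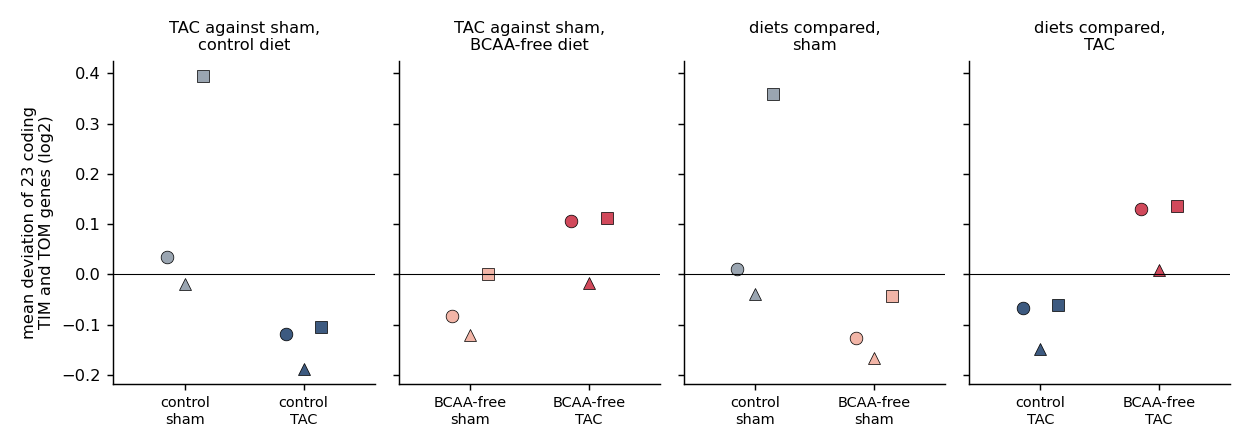
Mean deviation (log2) of the 23 coding TIM and TOM genes from their average over the 6 libraries of a table, for each library (circle, triangle and square are replicates 1, 2 and 3) in the 4 tables. Control diet sham replicate 3 lies at 0.40 and 0.36 in its 2 tables, and in the diet comparison after TAC the BCAA-free libraries (0.0090 to 0.14) lie above the control diet libraries (-0.15 to -0.061).

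The 24 genes differed widely in level. Levels are compared between genes here as normalized reads per kilobase of exon in control diet sham, mean ± SD with n = 3. Timm23, the channel subunit of the presequence translocase, stood at 3702 ± 674 and Timm8b, a small chaperone, at 3689.5 ± 1204; these 2 means differed by less than their SDs. Next came the small TOM subunit Tomm5 at 2749 ± 929, the chaperone Timm10 at 1419.8 ± 486, the small TOM subunit Tomm7 at 1162 ± 417 and the chaperone Timm13 at 1033 ± 313. A middle range held the receptor Tomm22 (974 ± 242), the motor scaffold Timm44 (883 ± 128), the presequence receptor of the inner membrane Timm50 (674 ± 94.5), the pore Tomm40 (604 ± 43.3), the receptor Tomm20 (559 ± 129) and Timm17a (556 ± 66.9), a partner of Timm23.

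Paralogues stood at unequal levels. Timm17b reached 266 ± 54.2 beside 556 ± 66.9 for Timm17a, and Tomm40l reached 214 ± 14.3 beside 604 ± 43.3 for Tomm40. Timm10b stood at 82.9 ± 19.5 against 1419.8 ± 486 for Timm10. The lower end held Timm21 (232 ± 19.7), which links TIM23 to the respiratory chain, the carrier translocase pore Timm22 (222 ± 8.46), the receptor Tomm70a (219 ± 12.9), the cytosolic co-chaperone Tomm34 (184 ± 1.09) and the chaperone Timm9 (86.4 ± 10.3). The lowest coding gene was Tomm6 at 47.9 ± 14.9. That value is uncertain, because 76% of the exon bases of Tomm6 are shared with Gm21981 on the same strand and 19.4% with Tomm6os on the other. Likewise, 64.3% of the exon bases of Tomm40l lie opposite Nr1i3 and 15.6% of those of Timm8b opposite Nkapd1, and use of strand in counting is not given in the sources used here.

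Promoter sequence was available for 21 of the 24 genes, as 23 windows of the 250 bases before a RefSeq start (GRCm38.p6); the bases after the start were not used. Nuclear genes for mitochondrial proteins are often described as carrying sites for the ETS-family factor GABP, for NRF1, YY1 and the estrogen-related receptors, so these letters were searched on both strands. The ETS letters CCGGAAG stood in 8 of the 23 windows (34.8%), of 7 genes (Timm10, Timm23, Timm29, Timm8b, Tomm22, Tomm34 and Tomm70a), and in 6.91% of all 32851 promoters. The median GC content of the windows was 57.6% for these genes and 52.4% for all promoters, and its part in that share was not tested. The NRF1 letters (GCGCA, any base, then GCGC) were found for Tomm20 alone, in 4.35% of the windows against 3.74% of all promoters. The receptor letters TCAAGGTCA were found for Timm8b alone (0.387% of all promoters), and the YY1 letters AAGATGGCG in 0 windows (0.606% of all promoters). In Tomm22 the ETS matches of the 2 strands overlap. The windows of Tomm34 overlap each other and share an ETS match, which is thus counted in both. Counted by gene, 7 of 21 had the ETS letters. Among common elements, the GC box GGGCGG stood in 47.8% of the windows (32.7% of all promoters), the CCAAT box in 26.1% (33.8%), the TATA box TATAAA in 8.7% (12.4%) and the cAMP response element TGACGTCA in 0 (1.55%). A match is a run of letters and not a bound site.

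Windows are printed 5′ to 3′ on the strand of the gene for the 3 genes whose response to TAC differed between the diets (Timm13, Timm44 and Timm50), for the only gene that fell on the BCAA-free diet after TAC (Tomm70a), for the gene at the highest level per length (Timm23) and for the gene with the NRF1 letters (Tomm20). Capitals mark the ETS or NRF1 letters or their reverse complement. The windows are chr10:80900970-80901219 (minus strand) for Timm13, chr8:4275906-4276155 (minus) for Timm44, chr7:28312047-28312296 (minus) for Timm50, chr16:57121464-57121713 (plus) for Tomm70a, chr14:32201892-32202141 (minus) for Timm23 and chr8:126945922-126946171 (minus) for Tomm20.
Timm13: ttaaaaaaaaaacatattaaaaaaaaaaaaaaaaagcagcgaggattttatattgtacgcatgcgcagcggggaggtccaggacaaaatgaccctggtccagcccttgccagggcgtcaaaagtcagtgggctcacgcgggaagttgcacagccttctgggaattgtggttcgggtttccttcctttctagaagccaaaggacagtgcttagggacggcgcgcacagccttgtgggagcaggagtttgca
Timm44: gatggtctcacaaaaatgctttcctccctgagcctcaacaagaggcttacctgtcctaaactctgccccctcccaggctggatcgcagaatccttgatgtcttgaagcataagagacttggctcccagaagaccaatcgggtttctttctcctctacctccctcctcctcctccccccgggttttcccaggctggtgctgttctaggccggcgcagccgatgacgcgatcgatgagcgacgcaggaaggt
Timm50: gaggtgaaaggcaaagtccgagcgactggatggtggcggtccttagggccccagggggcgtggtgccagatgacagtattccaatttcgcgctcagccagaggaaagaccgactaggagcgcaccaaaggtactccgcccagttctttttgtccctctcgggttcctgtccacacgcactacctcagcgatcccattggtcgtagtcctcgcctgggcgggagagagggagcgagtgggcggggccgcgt
Tomm70a: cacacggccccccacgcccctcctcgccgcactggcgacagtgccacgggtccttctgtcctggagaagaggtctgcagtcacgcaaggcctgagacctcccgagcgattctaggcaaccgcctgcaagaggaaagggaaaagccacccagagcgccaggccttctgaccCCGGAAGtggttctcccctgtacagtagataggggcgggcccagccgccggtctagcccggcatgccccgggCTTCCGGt
Timm23: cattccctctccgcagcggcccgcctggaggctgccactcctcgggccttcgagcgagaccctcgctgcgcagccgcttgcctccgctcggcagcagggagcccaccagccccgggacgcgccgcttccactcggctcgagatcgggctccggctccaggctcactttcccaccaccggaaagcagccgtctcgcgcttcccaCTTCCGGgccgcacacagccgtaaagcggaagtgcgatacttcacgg
Tomm20: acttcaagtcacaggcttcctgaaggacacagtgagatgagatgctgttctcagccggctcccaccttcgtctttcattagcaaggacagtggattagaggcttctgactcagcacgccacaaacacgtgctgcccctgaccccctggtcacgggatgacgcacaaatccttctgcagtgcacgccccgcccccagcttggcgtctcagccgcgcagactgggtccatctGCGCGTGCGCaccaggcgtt
The windows of Timm13, Timm44 and Timm50 hold none of the ETS, NRF1, YY1 or receptor letters. Tomm70a has the ETS letters at 80 and, on the other strand, at 8 bases before the start, and Timm23 has them at 47 bases before it on the other strand.

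TAC was first compared with sham on the control diet. Values after TAC were lower for 23 of the 24 genes, by a median log2 fold change of -0.26 against -0.0047 over all 15397 genes (19 of 24 were lower when values were scaled by library totals alone). By these values no gene passed the test (limma, Benjamini-Hochberg adjusted p under 0.05 over all genes tested), where 4.04% of all genes did (2.95% higher and 1.09% lower). By unadjusted p under 0.05 there were 9 of 24 genes (37.5%), against 28.2% of all genes. The 3 TAC values lay below the 3 sham values for 12 genes (50%), against 17.4% of all genes, and above them for 0 genes, against 17.8%. Without control diet sham replicate 3 the median was -0.17 and 20 of 24 genes were lower. Without control diet TAC replicate 2 it was -0.24, and 22 of 24 were lower. With each library's trends over GC content and transcript length removed, the median was -0.31, against -0.072 over all genes. All 24 genes were then lower, and Timm44 was called, where 10.1% of all genes were called (5.79% lower). DESeq2 called 1 gene (Timm23, lower), where it called 14.3% of all genes. With limma on all 12 libraries 4 of the 24 were called (Timm13, Timm23, Timm44 and Timm50, all lower). That setting called 19.7% of all genes in either direction and 9.26% lower. Both limma-voom and edgeR called 0 (2.08% and 3.57% of all genes).

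Of the 6 genes of the TIM23 complex, 5 had TAC values below all sham values. In control diet sham Timm23 had values of 5962, 5872 and 7999.5 (replicates 1, 2 and 3, in this order throughout) and in control diet TAC 5173, 4163 and 5187. The groups did not overlap, and the log2 fold change was -0.44 ± 0.15, adjusted p = 0.104. Timm50 had 1617, 1715 and 2097 in sham and 1449.7, 1346 and 1458 in TAC hearts (-0.34 ± 0.12, adjusted p = 0.102). Timm44, which tethers the import motor to the channel, had 2922, 3009 and 3774 in sham and 2636, 2357 and 2647 in TAC hearts (-0.34 ± 0.12, adjusted p = 0.12). All TAC samples of both genes lay below all sham samples, and for each the highest value was that of sham replicate 3. Without that library the log2 fold changes were -0.30 for Timm23, -0.23 for Timm50 and -0.22 for Timm44. Timm21 (-0.33 ± 0.13, adjusted p = 0.127) and Timm17a (-0.21 ± 0.12, adjusted p = 0.279) also did not overlap, while Timm17b (-0.27 ± 0.15, adjusted p = 0.283) did. Without the same library these stood at -0.30, -0.11 and -0.12.

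Among the small chaperones, Timm13, which works with Timm8 proteins on carrier and beta-barrel precursors, had values of 1200.1, 1138 and 1909.8 in sham and 1045, 988 and 935 in TAC hearts (-0.48 ± 0.18, adjusted p = 0.131). The difference was -0.24 without sham replicate 3, which alone held the value of 1909.8. Timm8b had 1661, 1451 and 2621 in sham and 1429.9, 1214 and 1379 in TAC hearts (-0.47 ± 0.20, adjusted p = 0.163), with the same library highest. Timm9 and Timm10 form the main escort of carrier proteins. Timm9 was lower in all TAC samples (-0.35 ± 0.13, adjusted p = 0.126), whereas Timm10 overlapped between the groups (-0.31 ± 0.20, adjusted p = 0.334). Leaving out sham replicate 3 gave -0.21 for Timm8b, -0.048 for Timm10 and -0.32 for Timm9.

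The outer membrane genes spread more. The small subunit Tomm7, which takes part in assembly of the TOM complex, had values of 1065, 1009 and 1848 in sham and 939, 809 and 847 in TAC hearts (-0.54 ± 0.21, adjusted p = 0.133); without sham replicate 3 the difference was -0.26. The pore gene Tomm40 had 2662, 2573 and 2947 in sham and 2316, 2248 and 2386 in TAC hearts (-0.23 ± 0.098, adjusted p = 0.16), without overlap. Tomm5 (-0.25 ± 0.20, adjusted p = 0.442) and Tomm6 (-0.57 ± 0.30, adjusted p = 0.254), the other small subunits, overlapped between the groups. Without sham replicate 3, Tomm5 turned to 0.0057 and Tomm6 stood at -0.37. Overlap was also found for all 3 receptors: the presequence receptors Tomm20 (-0.25 ± 0.16, adjusted p = 0.345) and Tomm22 (-0.14 ± 0.16, adjusted p = 0.597), and Tomm70a (0.053 ± 0.10, adjusted p = 0.767), the receptor of carrier precursors and the only member with a positive value. Without that library Tomm20 stood at -0.075 and Tomm22 turned to 0.051, while Tomm70a stood at 0.043. Tomm34 stood at -0.042 ± 0.10, adjusted p = 0.814. In the carrier route of the inner membrane, Timm22 (-0.19 ± 0.099, adjusted p = 0.249) and its partner Timm29 (-0.23 ± 0.11, adjusted p = 0.214) did not overlap, with -0.16 and -0.23 when sham replicate 3 was left out. Timm8a1, Timm10b, Tomm40l and Tomm6os, the members not described further, had values of -0.28 to -0.015, and Timm10b turned to 0.17 without it.

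On the BCAA-free diet the same comparison gave mostly positive values. Of the 24 genes, 19 were higher in TAC than in sham hearts, with a median log2 fold change of 0.16 against 0.0014 over all 15670 genes, and the same number was higher with library totals alone. A single gene, Timm13, passed the test and rose (4.17% of the genes, against 3.34% of all genes called higher and 6.23% called in either direction; 2.89% were called lower). By unadjusted p under 0.05 there were 11 genes (45.8%), against 24.5% of all genes. Values did not overlap, with TAC higher, for 9 genes (37.5%), against 14.6% of all genes, and with TAC lower for Tomm70a alone (4.17%, against 15%); in either direction 29.5% of all genes did not overlap.

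Timm13 had values of 1261, 1112 and 1334 in BCAA-free sham and 1644, 1473 and 1615 in BCAA-free TAC, so that no sham sample reached the lowest TAC sample. Its log2 fold change was 0.35 ± 0.087, adjusted p = 0.0374 by limma, with adjusted p of 0.0125 to 0.52 over the 17 alternative settings. The call was lost when each library's trends over GC content and transcript length were removed (0.13, adjusted p = 0.52), and Timm17a was called in its place (0.43, adjusted p = 0.0347), where 0.544% of all genes were called. It was also lost without BCAA-free sham replicate 1 (0.896% of all genes called) or 2 (0.69%), and without BCAA-free TAC replicate 1 (4.99%), 2 (2.44%; Tomm7 was then called) or 3 (0.307%). Without BCAA-free sham replicate 3, 3 genes were called (Timm13, Timm50 and Tomm5), against 7.56% of all genes. In this table the 3 TAC libraries had positive relations to GC content over all genes (Spearman 0.16 to 0.43) and the 3 sham libraries negative ones (-0.36 to -0.23), so that this base composition trend and the surgery cannot be told apart.

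The next smallest p-values belonged to Tomm5 and Timm10. Tomm5 had values of 1824, 1687 and 2018 in sham and 2303, 2109 and 2368 in TAC hearts (0.30 ± 0.084, adjusted p = 0.0554), and Timm10 had 1013, 929 and 986 and 1179, 1098 and 1217 (0.25 ± 0.080, adjusted p = 0.0773). Both were without overlap and neither passed the test. Tomm7 (0.32 ± 0.10, adjusted p = 0.0779), Timm50 (0.24 ± 0.076, adjusted p = 0.0799), Timm17b (0.25 ± 0.088, adjusted p = 0.101), Timm17a (0.19 ± 0.073, adjusted p = 0.142), Timm44 (0.15 ± 0.069, adjusted p = 0.19) and Timm23 (0.12 ± 0.069, adjusted p = 0.316) also had every TAC sample above every sham sample. Tomm70a had 2209.6, 2582 and 2519 in sham and 2116, 2019 and 2142 in TAC hearts (-0.22 ± 0.078, adjusted p = 0.113), the reverse order.

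The remaining core genes overlapped between sham and TAC on the BCAA-free diet. The log2 fold changes were 0.18 ± 0.079 for Tomm40, 0.35 ± 0.20 for Tomm6, 0.083 ± 0.076 for Tomm22, -0.045 ± 0.072 for Tomm20 and -0.13 ± 0.11 for Tomm34. They were 0.21 ± 0.095 for Timm8b, -0.067 ± 0.13 for Timm9, 0.19 ± 0.12 for Timm22, 0.16 ± 0.081 for Timm29 and -0.046 ± 0.099 for Timm21. The receptors had low or negative values on this diet, while every gene of the pore and its small subunits was positive. None of them passed the test. With GC content and length trends removed, the receptors were positive too (Tomm20 0.10, Tomm22 0.13 and Tomm70a 0.031). The pore and its small subunits then had 0.057 to 0.39. Timm8a1, Timm10b, Tomm40l and Tomm6os had values of 0.030 to 0.082.

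**Figure D2:**
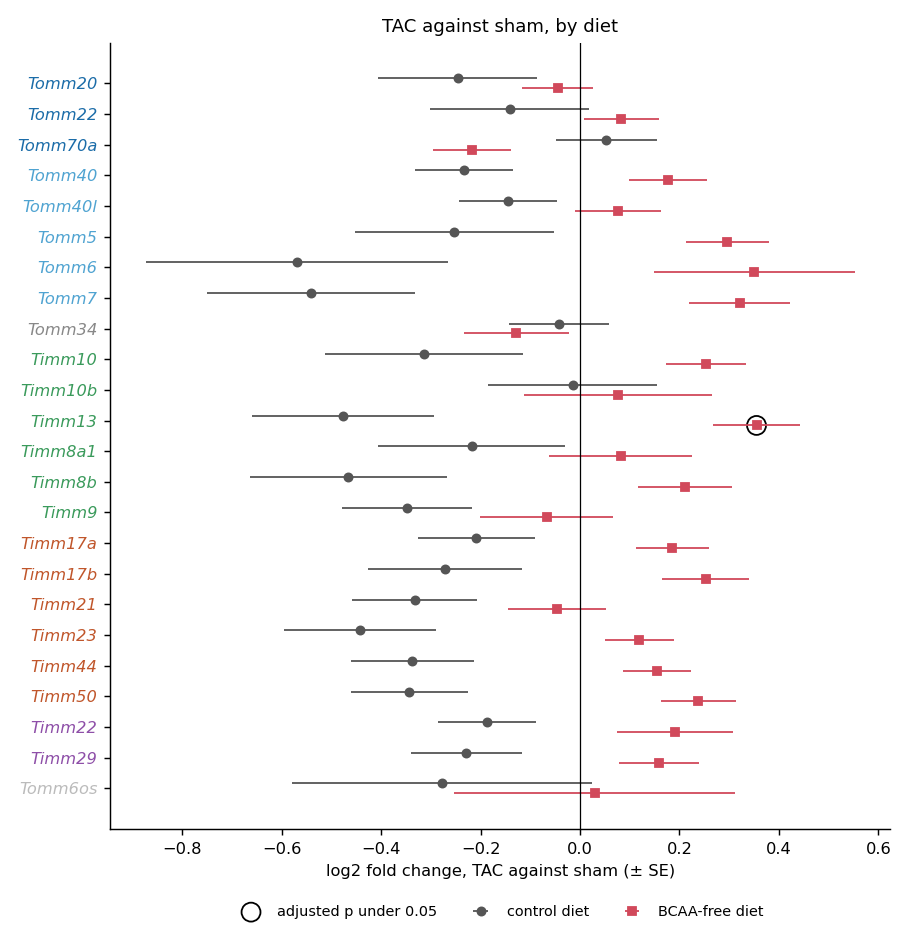
Log2 fold change of TAC against sham (± SE, n = 3 per group) for the 24 genes, ordered by role and coloured by complex, on the control diet (grey circles) and the BCAA-free diet (red squares). The control diet values lie below 0 for 23 genes (19 with library totals alone) and the BCAA-free values above 0 for 19; Timm13 on the BCAA-free diet is the only ringed value, with an adjusted p under 0.05.

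Whether the TAC difference itself depended on the diet was tested with the interaction, the TAC log2 fold change on the BCAA-free diet minus that on the control diet, over all 12 libraries. It was positive for 22 of 24 genes (21 with library totals alone), with a median of 0.39 against -0.030 over all 15195 genes. Of these, 3 genes passed, all positive (12.5%, against 4.92% of all genes called in that direction and 8.65% in either; 3.73% were called lower). By unadjusted p under 0.05 there were 15 genes (62.5%), against 28.4% of all genes. The 3 were Timm50 (0.58 ± 0.14, adjusted p = 0.0253), Timm13 (0.83 ± 0.22, adjusted p = 0.0344) and Timm44 (0.49 ± 0.14, adjusted p = 0.0438): a receptor and a motor scaffold of the presequence route, and a chaperone of the intermembrane space.

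The samples show where these differences lay. Their control diet values and those of Timm13 on both diets are given above. On the BCAA-free diet Timm50 had 1537, 1554 and 1721 in sham and 1894, 1815 and 1964 in TAC hearts, and Timm44 had 3097, 3353 and 3354 and 3636, 3585 and 3686. For both genes, and for Timm13, every TAC sample lay below every sham sample on the control diet and above every sham sample on the BCAA-free diet. The same order was found for Timm23, Timm17a and Tomm7, which did not pass in the interaction. This order is no separate evidence, because the interaction was computed from the same values. The share of all genes with this order was not counted. Without control diet sham replicate 3 the interaction was 0.47, adjusted p = 0.024 for Timm50, 0.60, adjusted p = 0.0184 for Timm13 and 0.38, adjusted p = 0.0439 for Timm44 by limma, and Tomm7 passed as well (0.58, adjusted p = 0.0328).

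After removal of the trends over GC content and length, none of the 3 passed (0.30, adjusted p = 0.112 for Timm50; 0.51, adjusted p = 0.0673 for Timm13; 0.46, adjusted p = 0.0619 for Timm44), while Timm17a (0.77, adjusted p = 0.0279) and Tomm7 (0.78, adjusted p = 0.0275) did, where 4.24% of all genes were called, and 23 of 24 genes were positive. The count also changed with single libraries left out, and so did the share of all genes called, given here in parentheses. It was 0 without BCAA-free sham replicate 1 (1.95%) or 2 (1.83%), BCAA-free TAC replicate 1 (2.88%) or 3 (1.42%), or control diet TAC replicate 2 (4.18%). A count of 0 of 24 is near each of these shares. It was 1 (Timm50) without BCAA-free TAC replicate 2 (4.58%) or control diet TAC replicate 3 (4.18%). Leaving out control diet sham replicate 1 gave 7 (9.02%), replicate 2 of that group 8 (9.08%) and control diet TAC replicate 1 gave 5 (11.4%), and the 3 genes were among the called ones in each of these. Without BCAA-free sham replicate 3 (6.61%) it was 3, with Tomm40 called in place of Timm44.

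Genes just outside the threshold were the pore Tomm40 (0.41 ± 0.12, adjusted p = 0.0512), the small subunit Tomm7 (0.86 ± 0.26, adjusted p = 0.0547) and the channel Timm23 (0.56 ± 0.17, adjusted p = 0.055). Tomm6 had the highest estimate (0.92 ± 0.37, adjusted p = 0.118), with a wide error and the overlap with other genes given above. Values for the rest of the TIM23 complex were 0.52 ± 0.18 for Timm17b, 0.39 ± 0.14 for Timm17a and 0.29 ± 0.16 for Timm21. Timm22 and Timm29 of the carrier route had 0.38 ± 0.16 and 0.39 ± 0.14. The chaperones had 0.68 ± 0.24 (Timm8b), 0.57 ± 0.23 (Timm10) and 0.28 ± 0.19 (Timm9). Other TOM genes had 0.55 ± 0.24 (Tomm5), 0.23 ± 0.18 (Tomm22) and 0.20 ± 0.18 (Tomm20), and the 4 members not described further had 0.092 to 0.31. Without control diet sham replicate 3 the values were 0.032 for Tomm22, 0.030 for Tomm20, 0.29 for Tomm5, 0.30 for Timm10 and 0.43 for Timm8b, and Timm10b turned to -0.093. With all libraries, negative values were found for Tomm70a (-0.27 ± 0.12, adjusted p = 0.172) and Tomm34 (-0.085 ± 0.15, adjusted p = 0.734) alone, and under scaling to library totals Tomm70a was called lower.

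**Figure D3:**
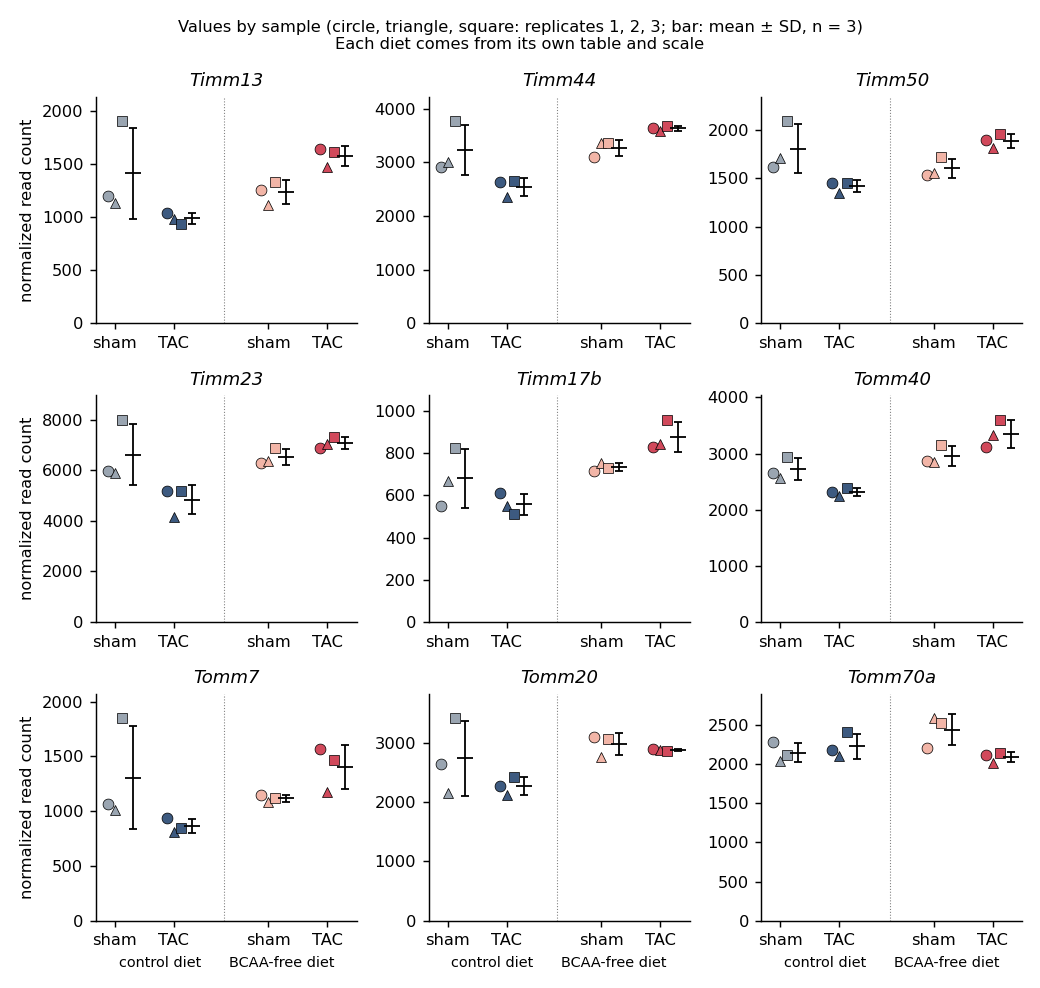
Normalized read counts (vertical axes from 0) of 9 TIM and TOM genes in each sample of the 4 groups, with mean ± SD (n = 3); the 2 diets come from separate tables and scales, so only sham and TAC of 1 diet are comparable. Timm13, Timm44 and Timm50, and also Timm23 and Tomm7, lie lower in TAC than in sham on the control diet and higher on the BCAA-free diet. Among the control diet sham samples, replicate 3 (square) is the highest in 8 of the 9 panels.

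The interaction varied with transcript length across the 24 genes (Spearman -0.69, n = 24 genes measured in the same libraries), and over all genes the coefficient was -0.37. The 8 genes with transcripts under 1500 bases had a median of 0.62, against 0.31 over the 2308 genes of that length. The 16 longer ones had a median of 0.30, against -0.072 over longer genes. Within both length classes the TIM and TOM median was above that of all genes. Lengths within a class were not matched, and the part of transcript length in the interaction was not tested. Of the 3 called genes, Timm13 (transcript of 1225 bases) is in the short class, Timm50 (1515) lies at its border and Timm44 (3041) is in the long class. The gene with the longest transcript, Timm17a (7280), had 0.39.

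**Figure D4:**
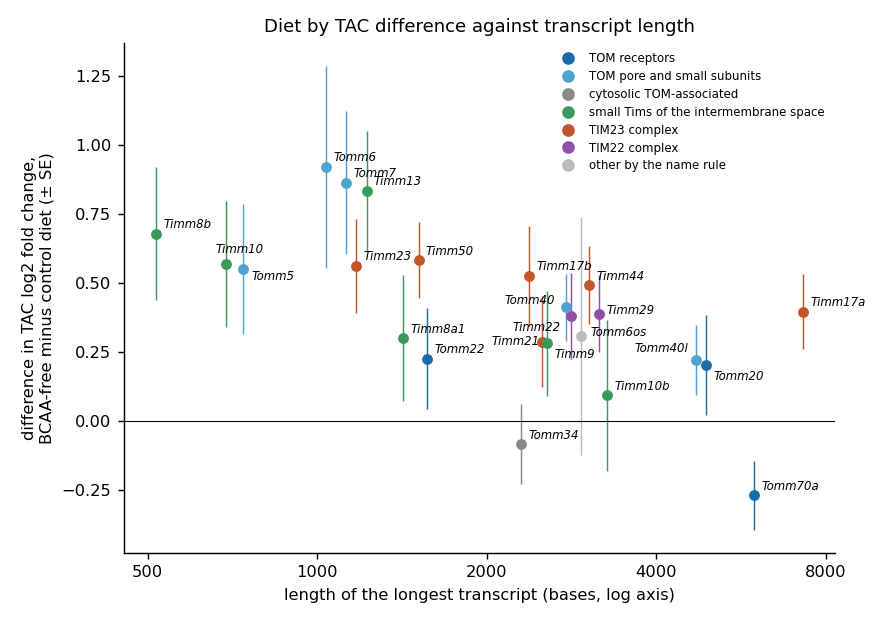
Difference of the TAC log2 fold change between diets (BCAA-free minus control diet, ± SE) against transcript length in bases (log axis), for the 24 genes coloured by complex. Short transcripts such as Tomm6, Tomm7 and Timm13 lie highest, and Tomm70a and Tomm34 are the only genes below 0.

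The diets were then compared within each surgery; these comparisons share libraries with those above and are no separate evidence. After sham surgery 23 of 24 genes had lower values on the BCAA-free diet (22 of 24 with library totals alone; median -0.21, all 15217 genes -0.00045). None passed the test by limma, where 0.624% of all genes did (0.25% higher and 0.375% lower), and 7 genes had an unadjusted p under 0.05 (29.2%, against 16.6%). BCAA-free values lay below control values without overlap for 10 genes (41.7%, against 11.3% of all genes) and above them for Tomm34 alone (4.17%, against 11.7%). Without control diet sham replicate 3 the median was -0.11 and 19 of 24 genes were lower. DESeq2 called Timm22 and Tomm5 lower, where it called 3.49% of all genes. With limma on all 12 libraries Timm22 and Timm50 were called lower, where 2.39% of all genes were called. Both limma-voom and edgeR called 0 (0.421% and 0.598% of all genes).

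Timm22, the channel of the carrier translocase, had the smallest p. Its values were 660.2, 679 and 705 on the control diet and 473, 451 and 551 on the BCAA-free diet (-0.47 ± 0.12, adjusted p = 0.0803), and the gap did not depend on sham replicate 3 (-0.45 without it). It passed the test when GC content and length trends were removed (-0.48, adjusted p = 0.0362), where 2.46% of all genes were called. Timm50 had 1563, 1662 and 2008 on the control and 1263, 1276 and 1414 on the BCAA-free diet (-0.40 ± 0.12, adjusted p = 0.127), also without overlap, and -0.29 without sham replicate 3. Tomm5 had 2040.4, 1699 and 3154 and 1498, 1385 and 1658 (-0.56 ± 0.20, adjusted p = 0.209), with sham replicate 3 far above its group. Without that library the value of Tomm5 was -0.30.

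The other core genes had larger p-values after sham surgery. In the TIM23 complex the log2 fold changes were -0.24 ± 0.13 for Timm23, -0.21 ± 0.11 for Timm44, -0.25 ± 0.11 for Timm17a, -0.10 ± 0.14 for Timm17b and -0.076 ± 0.11 for Timm21; without control diet sham replicate 3 they were -0.098, -0.097, -0.16, 0.041 and -0.049. For the chaperones they were -0.39 ± 0.18 for Timm13, -0.43 ± 0.19 for Timm10, -0.39 ± 0.19 for Timm8b and -0.32 ± 0.14 for Timm9, and without that library -0.16, -0.16, -0.15 and -0.30. For TOM they were -0.40 ± 0.20 for Tomm7, -0.11 ± 0.10 for Tomm40, -0.21 ± 0.15 for Tomm22, -0.090 ± 0.15 for Tomm20, -0.050 ± 0.10 for Tomm70a and 0.24 ± 0.12 for Tomm34, and without it -0.13, -0.060, -0.023, 0.077, -0.064 and 0.24. Timm8a1, Timm10b, Tomm40l and Tomm6os had values of -0.34 to -0.075, and Timm29 had -0.024 ± 0.10 and Tomm6 -0.057 ± 0.28. Leaving out the same library turned Timm17b, Tomm20, Tomm6 (0.13) and Timm10b (0.10) positive, and Timm29 stood at -0.032.

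After TAC, 8 genes rose and 1 fell on the BCAA-free diet relative to the control diet. The genes that rose were Timm13, Timm17b, Timm23, Timm29, Timm44, Tomm40, Tomm6 and Tomm7, and the gene that fell was Tomm70a. This is 37.5% of the 24 genes against 34.2% of all genes, a share near the background. Called higher were 33.3% against 16.5%, and called lower 4.17% against 17.7%. By unadjusted p under 0.05 there were 11 genes (45.8%, against 45.7%). The median log2 fold change was 0.15, against 0.00026 for all 15872 genes, and 19 of 24 genes were positive (15 with library totals alone). BCAA-free values lay above control values without overlap for 12 genes (50%, against 25.2%) and below them for 1 (4.17%, against 25.6%); in either direction 50.8% of all genes did not overlap.

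In the TIM23 complex, Timm23 had values of 6330.5, 5059.8 and 6317 in control diet TAC and 7133, 7297 and 7584 in BCAA-free TAC (0.32 ± 0.10, adjusted p = 0.0365). Timm44 had 3226, 2865 and 3224 and 3767, 3722 and 3821 (0.28 ± 0.077, adjusted p = 0.0215), and Timm17b had 748, 667 and 624 and 859, 875 and 995 (0.42 ± 0.099, adjusted p = 0.0124). In each case the lowest BCAA-free sample exceeded the highest control diet sample. The same held for Timm50 (0.18 ± 0.074, adjusted p = 0.0854), which missed the threshold. Timm17a (0.14 ± 0.082, adjusted p = 0.21) and Timm21 (0.21 ± 0.12, adjusted p = 0.193) overlapped.

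Timm13 had 1279, 1201 and 1139 in control diet TAC and 1704, 1529.5 and 1674 in BCAA-free TAC (0.44 ± 0.081, adjusted p = 0.00485), the smallest p of the 24 genes, with adjusted p of 0.000131 to 0.0572 over the alternatives. The other chaperones did not pass: Timm8b (0.28 ± 0.10, adjusted p = 0.0602) and Timm10 (0.14 ± 0.077, adjusted p = 0.187) were positive, and Timm9 (-0.041 ± 0.12, adjusted p = 0.824) stood near 0. In the TIM22 complex Timm29, a subunit found in animals, had 2446, 1904 and 2254 and 2701, 2972 and 2783 (0.36 ± 0.10, adjusted p = 0.0221). The channel of the same complex, Timm22, had 777, 714 and 780.2 and 728, 610.2 and 794, which overlapped (-0.098 ± 0.11, adjusted p = 0.508).

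In the TOM complex the pore gene Tomm40 had 2835, 2732 and 2907 in control diet TAC and 3226, 3459 and 3736 in BCAA-free TAC (0.30 ± 0.079, adjusted p = 0.0202). Tomm7 had 1149.5, 984 and 1032 and 1624, 1221 and 1526 (0.46 ± 0.12, adjusted p = 0.0158), and Tomm6 had 32.3, 51.1 and 46.6 and 82.3, 78.5 and 74 (0.86 ± 0.22, adjusted p = 0.0165). The BCAA-free samples of all 3 genes lay above the control diet samples; for Tomm6 the counts are low and the gene overlap given above applies. The values of the small subunit Tomm5 overlapped: they were 2330.0, 2316 and 2421 and 2386, 2189 and 2455 (-0.0088 ± 0.075, adjusted p = 0.94). Among the receptors Tomm70a fell, from 2664, 2552 and 2929 to 2193, 2096 and 2221 (-0.32 ± 0.078, adjusted p = 0.0139), without overlap. Tomm20 (0.11 ± 0.076, adjusted p = 0.29) and Tomm22 (0.013 ± 0.076, adjusted p = 0.913) did not pass, and neither did Tomm34 (0.15 ± 0.088, adjusted p = 0.205), although the BCAA-free samples of Tomm20 and Tomm34 lay above the control diet samples. Timm8a1, Timm10b, Tomm40l and Tomm6os had values of -0.047 to 0.14.

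The fall of Tomm70a depended on the treatment of sequence composition. Its transcript is 5964 bases long with a GC content of 40.7%, and after removal of the trends over GC content and length its log2 fold change was -0.016, adjusted p = 0.896. Under the same setting 7 genes were called, all higher (Timm17a, Timm17b, Timm21, Timm29, Tomm20, Tomm40 and Tomm7), and 4 of them were among the 9 above. This is 29.2%, against 29.6% of all genes called in either direction and 17.5% called higher. In this table the BCAA-free TAC libraries had length coefficients of -0.34 to -0.12 over all genes and the control diet TAC libraries 0.18 to 0.26, so that the trend and the diet cannot be told apart. Left-out libraries changed the count and the share of all genes called. Without BCAA-free TAC replicate 1 there were 4 calls (Timm13, Timm17b, Tomm40 and Tomm70a; 16.7%, against 22.1% of all genes), and without replicate 2 also 4 (Timm13, Timm17b, Timm8b and Tomm7; against 22.6%). Without BCAA-free TAC replicate 3 there were 3 (Timm13, Tomm6 and Tomm70a; 12.5%, against 21.3%), and without control diet TAC replicate 3 also 3 (Timm13, Timm44 and Tomm6; against 23.2%). Without replicate 1 or 2 of that group the same 9 genes were called (33.3% and 33.1% of all genes).

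Scaling moved all genes together. With library totals alone, the median of all genes was -0.13 and that of the 24 genes 0.020, a difference of 0.15 that equals the 0.15 found above to 2 decimals. Under this scaling 5 genes were called (Timm13, Timm17b, Tomm6 and Tomm7 higher, Tomm70a lower; 9.2% of all genes were called higher and 23.9% lower), and 15 of 24 genes were positive. All 9 genes kept their direction. Over all genes the split of calls was 2618 higher and 2817 lower, and 1461 and 3798 with library totals.

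**Figure D5:**
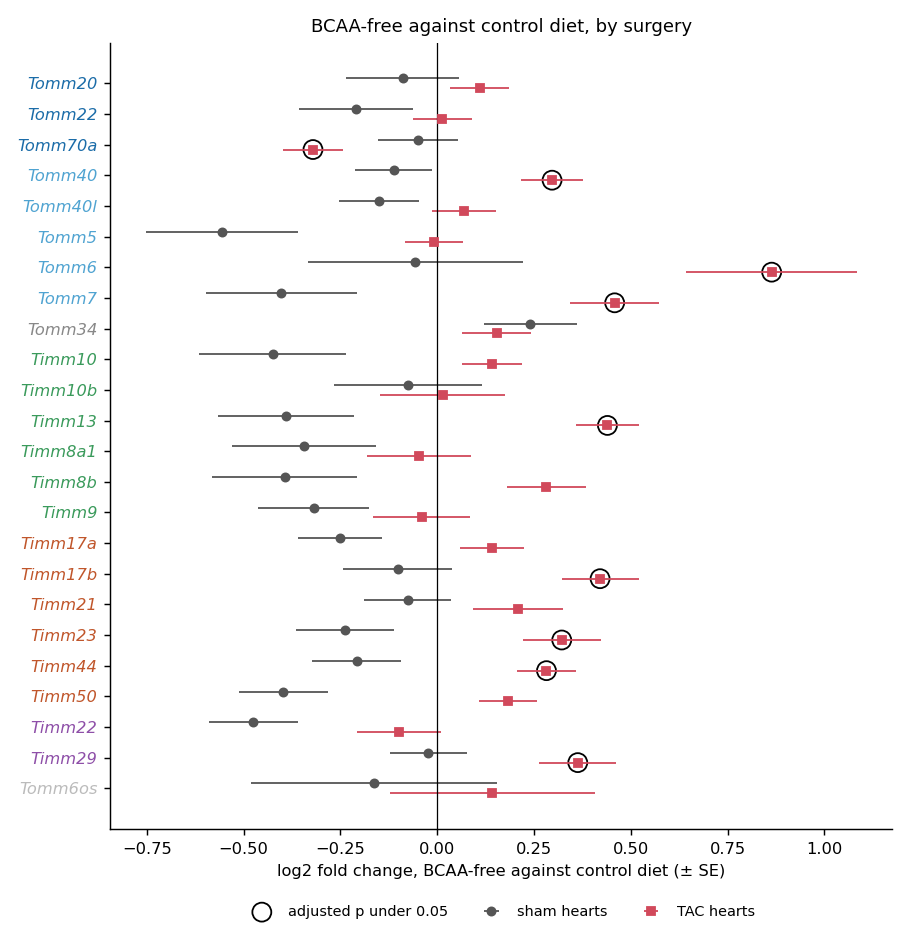
Log2 fold change of the BCAA-free against the control diet (± SE, n = 3 per group) for the 24 genes, in sham hearts (grey circles) and TAC hearts (red squares); rings mark an adjusted p under 0.05. The sham values lie below 0 for 23 genes (22 with library totals alone) with none ringed, and the TAC values carry 9 rings, 8 above 0 and that of Tomm70a below.

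Markers of cell types moved in the same comparisons. After TAC, 6 of 8 cardiomyocyte markers rose on the BCAA-free diet, with summed values of 1738604 to 2253209 in control diet TAC and 2928305 to 2974798 in BCAA-free TAC. Of 8 fibroblast markers 7 fell (62084 to 163756 and 26101 to 34240.0), as did 6 of 7 macrophage markers (7775 to 9118 and 4982 to 6077) and 4 of 6 endothelial markers (31814 to 33153 and 25039 to 28959). Of 4 atrial markers, Sln (1.17 ± 0.31, adjusted p = 0.0295) and Myl7 (1.26 ± 0.33, adjusted p = 0.0297) rose. Myl4 (0.71 ± 0.25, adjusted p = 0.0707) and Nppa (-0.65 ± 0.65, adjusted p = 0.48) did not pass. The sums of the 4 overlapped (34306 to 110859.6 and 26354 to 62999). They include Nppa, also 1 of the stress genes above. Its values were 28146, 104800 and 27588 in control diet TAC and 16798, 29373 and 42746 in BCAA-free TAC. Of 4 smooth muscle markers Myh11 rose (0.41 ± 0.13, adjusted p = 0.0423), and the sums overlapped (8034 to 12076 and 9089 to 11798).

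With TAC on the control diet, 5 of 8 fibroblast markers rose (sums of 23777 to 27196 in sham and 50731 to 134732 in TAC hearts), 1 of 8 cardiomyocyte markers fell (2085386 to 2175210.0 and 1430456 to 1841164), and 1 of 7 macrophage markers rose. The smooth muscle markers Cnn1 (1.36 ± 0.28, adjusted p = 0.043) and Tagln (0.77 ± 0.16, adjusted p = 0.0433) rose as well. With TAC on the BCAA-free diet, 0 of 8 cardiomyocyte markers passed (2597118 to 2822982 in sham and 2820451 to 2870845 in TAC hearts). There, 1 of 8 fibroblast markers and 1 of 6 endothelial markers fell and 2 of 7 macrophage markers rose. None of the 4 atrial markers passed by limma, and all 4 were positive (median 1.11). Their sums were 9898 to 20515 in sham and 25433 to 60770.5 in TAC hearts, without overlap. Nppa alone had a mean of 8234 in sham and 28579 in TAC hearts. On the control diet the atrial sums did not overlap either (7888 to 22448 in sham and 28167 to 91211 in TAC hearts). Nppa was positive on that diet (2.40 ± 0.67, adjusted p = 0.0793), the other 3 were negative, and none passed.

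After sham surgery, cardiomyocyte sums were 2000866 to 2107145 on the control and 2132862 to 2317668 on the BCAA-free diet, and 0 of 8 passed. All 7 macrophage markers had lower values on the BCAA-free diet, with none past the threshold (4589 to 6231 and 3488 to 3747), 1 of 8 fibroblast markers fell, and the smooth muscle marker Myh11 rose (1.18 ± 0.20, adjusted p = 0.0428). In the interaction, 2 of 8 cardiomyocyte markers were called positive and 2 of 8 fibroblast markers negative. Among the 4 atrial markers 3 were positive and none passed (median 1.26), and the 4 smooth muscle markers were negative, none past the threshold (median -0.72). The lymphocyte markers Cd3e and Cd3g are not listed in these tables, and the sum of the other 2 stayed at or below 75.2. Of 5 blood markers, Hba-a2 rose with TAC on the BCAA-free diet (0.62 ± 0.12, adjusted p = 0.0193 by limma). It also rose on the BCAA-free diet after TAC (0.39 ± 0.096, adjusted p = 0.0149) and was called positive in the interaction (0.70 ± 0.20, adjusted p = 0.042). No other blood marker passed in any fit, and the blood sums overlapped in every comparison. The part of cell and tissue composition in the TIM and TOM results was not tested.

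Ratios of partner genes within a library do not depend on the scaling of libraries, but they do depend on trends over GC content and length, which act on each gene. After TAC, the log2 ratio of Timm17a to Timm17b was 2.77 ± 0.12 on the control against 2.48 ± 0.066 without BCAA, with no overlap (exact two-sided permutation p = 0.1, the smallest that 3 against 3 allows). The ratio of Tomm40 to Tomm40l was 1.22 ± 0.073 on the control against 1.45 ± 0.076 without BCAA (exact permutation p = 0.1). With TAC on the control diet, that of Timm10 to Timm10b was 1.94 ± 0.16 after sham and 1.64 ± 0.093 after TAC (exact permutation p = 0.1). When those trends were removed, these 3 differences moved from -0.28 to 0.066, from 0.23 to 0.10 and from -0.30 to -0.062, so that the first turned its direction. The other 13 of the 16 ratios compared, 4 pairs in 4 comparisons, had exact p of 0.2 to 0.7. No ratio can pass 0.05 in this design, and adjusted over the 4 pairs of a comparison the smallest p was 0.2.

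A list of 35 further genes of mitochondrial import, sorting and quality control was examined in the same fits. With TAC on the control diet 0 of 35 passed (4.04% of all genes, as above) and 33 were negative (median -0.33); the smallest p-values were those of Clpp, the matrix protease subunit (-0.63 ± 0.17, adjusted p = 0.0613), and Mipep, a presequence-processing peptidase (-0.51 ± 0.14, adjusted p = 0.065). With TAC on the BCAA-free diet 1 rose (Romo1, a small inner membrane protein, 0.30 ± 0.083, adjusted p = 0.0495; 2.86% against 3.34% of all genes) and 2 fell (the protease Yme1l1, -0.32 ± 0.077, adjusted p = 0.0356, and the peptidase Xpnpep3, -0.39 ± 0.11, adjusted p = 0.0493; 5.71% against 2.89%). After sham surgery 0 of 35 differed by diet at the threshold, and the smallest p-values were those of Yme1l1 (0.29 ± 0.097, adjusted p = 0.181) and Chchd4 (-0.39 ± 0.14, adjusted p = 0.191), which imports proteins of the intermembrane space by forming disulfide bonds.

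After TAC, 14 of the 35 rose (40%, against 16.5% of all genes) and 1 fell (2.86%, against 17.7%) on the BCAA-free diet, with a median of 0.22. The smallest p-values belonged to Romo1 (0.62 ± 0.086, adjusted p = 0.0018), Clpp (0.64 ± 0.10, adjusted p = 0.00295), the outer membrane protein Mtx1 (0.47 ± 0.082, adjusted p = 0.00403) and the inner membrane peptidase Immp2l (0.61 ± 0.13, adjusted p = 0.00872), and the gene that fell was Mtx3 (-0.39 ± 0.096, adjusted p = 0.0142). In the interaction 5 of 35 were positive past the threshold (14.3%, against 4.92% of all genes), among them the insertase Oxa1l (0.64 ± 0.13, adjusted p = 0.0156), Clpp (0.84 ± 0.19, adjusted p = 0.0217), Mipep (0.58 ± 0.16, adjusted p = 0.044) and Romo1 (0.94 ± 0.27, adjusted p = 0.0458). The medians of the 24 TIM and TOM genes in these 2 comparisons were 0.15 and 0.39.

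Of 9 genes for regulators of nuclear mitochondrial genes, Esrra, the estrogen-related receptor alpha, fell with TAC on the control diet (-0.57 ± 0.12, adjusted p = 0.0433), rose on the BCAA-free diet after TAC (0.56 ± 0.10, adjusted p = 0.00475) and passed in the interaction (0.73 ± 0.14, adjusted p = 0.013). Yy1 rose on the BCAA-free diet after TAC (0.33 ± 0.085, adjusted p = 0.0171). In that comparison 2 of the 9 were called, both higher (22.2%, against 16.5% of all genes called higher and 34.2% in either direction). The median of the 9 was -0.064 there, and 6 were negative. Gabpa, the DNA-binding subunit of GABP, fell with TAC on the BCAA-free diet (-0.40 ± 0.085, adjusted p = 0.0235). With TAC, 1 of the 9 was called lower on each diet (11.1%, against 1.09% of all genes on the control and 2.89% on the BCAA-free diet). In the interaction 1 of the 9 was called positive (11.1%, against 4.92%). The coactivator gene Ppargc1a did not pass in any of the 5 fits; with TAC it stood at -0.59 ± 0.15, adjusted p = 0.0564 on the control and -0.69 ± 0.31, adjusted p = 0.258 on the BCAA-free diet. After sham surgery none of the 9 passed, and the smallest p was that of the stress-response factor Atf5 (-0.54 ± 0.16, adjusted p = 0.135).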

How the data were processed

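PolyA RNA-seq of 12 samples of mouse heart was analysed, 3 per group. The builds GRCm38 and mm10 and the tools STAR 2.5.2b, Subread 1.5.2, Trimmomatic 0.36 and DESeq2 are named, per the submitters' processing notes; what each did is not given in the sources used here. The authors deposited 4 tables of 6 libraries each, whose signal is a normalized read count, the count of a gene divided by 1 size factor per library and table. Dividing by the step of a library gave whole reads for 100% of values within 0.01. The authors' log2 fold changes and p-values, per the file headers, were not used for any result.

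Each pair of groups was fitted in its own table with limma 3.58.1 (R 4.3.3, statmod 1.5.0; trend and robust) on log2(value + 1), keeping genes whose mean value reached 10, over the whole table, and p-values were Benjamini-Hochberg adjusted over it. Fold changes are on that scale. The interaction used the 12 libraries of the 2 TAC tables. The lowest mean of any listed gene was 7.25. The fits were also run on simulated reads with set fold changes. Those reads carried no trends over GC content or length between libraries, so these runs do not bear on such trends. The members and gene lists were chosen with earlier results of these data known. The genes named are those called, the 3 with the smallest p in a comparison and a core list of 19; of other lists, up to 4 called genes or the 2 with the smallest p. Transcript length, GC content and exon overlap come from GENCODE M21 (GRCm38), promoters from RefSeq (GRCm38.p6); 99.8% of IDs of the tables matched.

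Alternatives were 2 other scalings (TMM and library totals alone), 2 other filters (none, or a mean of 100), a pseudocount of 10, a block for the replicate number, DESeq2 1.42.0, limma-voom and edgeR 4.0.16 on recovered reads, limma on 12 libraries, removal of trends over GC content and log2 length (natural splines, 5 degrees of freedom), and each library left out. The replicate numbers were not treated as pairs. No replicates agreed within counting error.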

Additional observations from a re-analysis of the deposited data

Results flagged for a closer look

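The response to TAC differed between the diets, by the interaction test with limma, for 3 genes. The TAC log2 fold change was higher on the BCAA-free than on the control diet by 0.83 for Timm13, by 0.49 for Timm44 and by 0.58 for Timm50. Over the 22 alternative settings of the interaction, the adjusted p was 0.00461 to 0.0878 for Timm13 (14 settings past the threshold), 0.0101 to 0.102 for Timm44 (12 settings) and 0.00289 to 0.112 for Timm50 (16 settings), and each estimate was positive in all 22.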

How the results depend on the processing

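The direction of the median over the 24 genes was the same under every alternative: it ranged from -0.36 to -0.11 for TAC on the control diet, 0.10 to 0.17 for TAC on the BCAA-free diet, -0.28 to -0.11 for the diet after sham, 0.020 to 0.19 for the diet after TAC and 0.22 to 0.44 for the interaction. Counts of genes called moved more, and the share of all genes called, given in parentheses, moved as well. For TAC on the control diet (0 called, 4.04%) DESeq2 gave 1 (14.3%) and limma on 12 libraries 4 (19.7%). Removed GC content and length trends gave 1 there (10.1%). For the diet after sham (0 called, 0.624%) these settings gave 2 (3.49%), 2 (2.39%) and 1 (2.46%). Leaving out a library gave 0 in both (0% to 7.1% and 0.0395% to 3.13%). For TAC on the BCAA-free diet (1 called, 6.23%) library totals alone gave 0 (5.55%). A mean value of at least 100 gave 2 (10.5%), the replicate block 3 (8.43%) and DESeq2 3 (9.51%). Limma on 12 libraries gave 0 (0.388%), and a library left out 0 to 3 (0.307% to 7.56%). For the diet after TAC (9 called, 34.2%) library totals gave 5 (33.1%) and a library left out 3 to 9 (21.3% to 33.3%). For the interaction (3 called, 8.65%) TMM-rescaled values gave 6 (8.95%) and the replicate block 7 (10.4%). A mean value of at least 100 gave 6 (13.5%), DESeq2 9 (14.7%), limma-voom 6 (8.65%) and edgeR 6 (9.16%). A library left out gave 0 to 8 (1.42% to 11.4%). With a library left out each group keeps at least 2 samples. The cause of these changes was not tested.

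The deviations of same-numbered samples from their group means had correlations of -0.26 to 0.15. The labels do not say whether samples of the same number share anything else, and these correlations cannot settle it. The replicate block gave 10 calls for the diet after TAC, where 29.2% of all genes were called. It gave 0 for TAC on the control diet (5.34% of all genes) and for the diet after sham (0.94%). Not every sample correlated best with its own number. With library totals alone the median of all genes moved to 0.14 for TAC on the control diet and -0.20 for the interaction; the split of all calls was 454 higher and 168 lower against 1267 and 149 for the first, and 747 and 567 against 386 and 1462 for the second. The 24 genes then had medians of -0.11 and 0.22, which differ from those of all genes by -0.26 and 0.42. Each group holds 3 samples, and Tomm6 and Tomm6os had the lowest values of the 24 genes, so their counting error is the largest.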
